A study of Mus musculus with 10 samples.

Results

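The genes described here encode the subunits of the mitochondrial oxidative phosphorylation complexes, together with a few assembly factors that carry the same name stems. They were chosen by name alone: every non-control probe whose gene name in the scanner files begins with Nduf, with Sdh and a letter from a to d, with Uqcr, with Cox and a digit from 4 to 8, or with Atp5. The rule took 125 of 41174 probes on the array, which carry 86 gene names. Of these genes, 83 had a probe above background on at least 3 of the 10 arrays and were tested among 17782 genes and unnamed transcripts. They comprise 36 genes of complex I, 4 of complex II, 7 of complex III, 15 of 18 of complex IV and 15 of complex V, 4 assembly factors and 2 other names. Cox4nb, now Emc8, belongs to a complex of the endoplasmic reticulum, and Atp5s, now Dmac2l, is known as a coupling factor B of ATP synthase; these are the 2 other names.

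Oxidative phosphorylation passes electrons from NADH and succinate through complexes I to IV of the inner mitochondrial membrane to oxygen, and ATP synthase, complex V, uses the resulting proton gradient to make ATP. Complex I oxidises NADH, complex II (succinate dehydrogenase) is also an enzyme of the tricarboxylic acid cycle, complex III hands electrons to cytochrome c, and complex IV (cytochrome c oxidase) reduces oxygen. Most subunits are encoded in the nucleus and imported, and a small set of core subunits is encoded in mitochondrial DNA.

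The samples are spontaneous lymphomas of mice that carry 1 allele for LIP, the short isoform of the transcription factor C/EBPβ (+/L, 5 mice), and of wild-type mice (+/+, 5 mice). C/EBPβ exists in long and short forms, and LIP keeps the DNA-binding end of the protein but little of its activation domains. Total RNA of each frozen tumour was hybridised to 1 single-colour Agilent mouse array, so that n counts tumours of separate animals, named here by mouse number. No treatment was applied, and both groups aged in the same facility until a lymphoma was found. The +/L mice were 18 ± 4.06 months old (SD, n = 5; range 11 to 21) and the +/+ mice 24.9 ± 3.47 months (SD, n = 5; range 20 to 29), so that genotype and age differ together. By the labels 4 of 5 +/L and 3 of 5 +/+ mice were female. The arrays of 2 mice labelled male, +/L mouse 20 and +/+ mouse 11, had Xist above background and Ddx3y, Eif2s3y and Kdm5d not, and counts and medians between genotypes are also given without them. The tumours are bulk tissue, in which fewer cells of a type and less RNA per cell cannot be told apart.

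Every level below is a relative log2 signal: the log2 of an array's processed signal minus that array's 75th percentile. It can be compared between tumours for a probe, but not between probes. That percentile was 309 to 651 signal units on the +/L arrays and 199 to 340 on the +/+ arrays (means 434 ± 129 and 288 ± 61.1, SD, n = 5 each; exact two-sided permutation test, p = 0.032). B-cell markers were low in +/L tumour 866 (median -1.72 against each gene's mean over the tumours) and between -0.14 and 0.61 in the others. T-cell markers ranged from -1.7 in +/L tumour 20 to 1.5 in +/+ tumour 19.

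Expression of the complexes varied little among the tumours, and it varied in concert. The SD of a gene over the 10 tumours had a median of 0.33 log2 over the 83 genes, against 0.56 over all genes tested and 0.42 over the 1779 brightest of them. For 80 of 83 genes the SD lay below the median of all genes. The other 3 all encode tissue-restricted subunits of complex IV: Cox8b with an SD of 2.47, Cox6a2 with 1.22 and Cox7a1 with 0.70. Among the remaining subunits the widest spreads were those of Atp5g1 (0.52), one of the genes for the c ring of ATP synthase, Cox6c and Cox7c (both 0.51) of complex IV and Uqcrc1 (0.50), a core protein of complex III. The narrowest were those of Sdhc (0.20), a membrane anchor of complex II, Ndufb4 (0.21) of complex I and Atp5l (0.21) of ATP synthase.

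For each tumour, the level of a complex was taken as the median over its genes of how far each gene lay, in log2, from its own mean over the 10 tumours. Complex I was high in +/+ tumour 101 (0.34) and +/L tumour 688 (0.28), followed by +/L tumour 20 (0.15) and +/+ tumour 11 (0.15). It lay near 0 in +/+ tumour 40 (0.07), +/L tumour 23 (0.02) and +/+ tumour 19 (-0.08). It was low in +/L tumour 866 (-0.23), +/+ tumour 17 (-0.28) and +/L tumour 517 (-0.41). Both genotypes therefore held tumours at the top and at the bottom of the order. Complex III ranged from -0.40 in tumour 517 to 0.37 in tumour 101, complex IV from -0.53 in tumour 517 to 0.42 in tumour 688, and complex V from -0.42 in tumour 517 to 0.39 in tumour 101. Complex II was also lowest in tumour 517 (-0.25). All 5 complexes thus had the same tumour at the bottom, and complexes I, III, IV and V had tumours 101 and 688 among their highest.

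In these tumours nearly every gene moved one way. In +/L tumour 688, 35 of 36 genes of complex I, 7 of 7 of complex III, 14 of 15 of complex IV and 15 of 15 of complex V lay above their own mean over the tumours. In +/+ tumour 17 the counts were 1 of 36, 0 of 7, 1 of 15 and 0 of 15. Over all genes tested, 47.5% lay above their mean in tumour 688 and 48.6% in tumour 17. Over the 1779 brightest genes, which are closer to the members in signal, it was 65.6% and 30.5%. Complex II differed at the top: its level was highest in +/L tumour 866 (0.22), where the other 4 complexes were low, and it stood at -0.02 in tumour 101, where they were high.

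**Figure D1:**
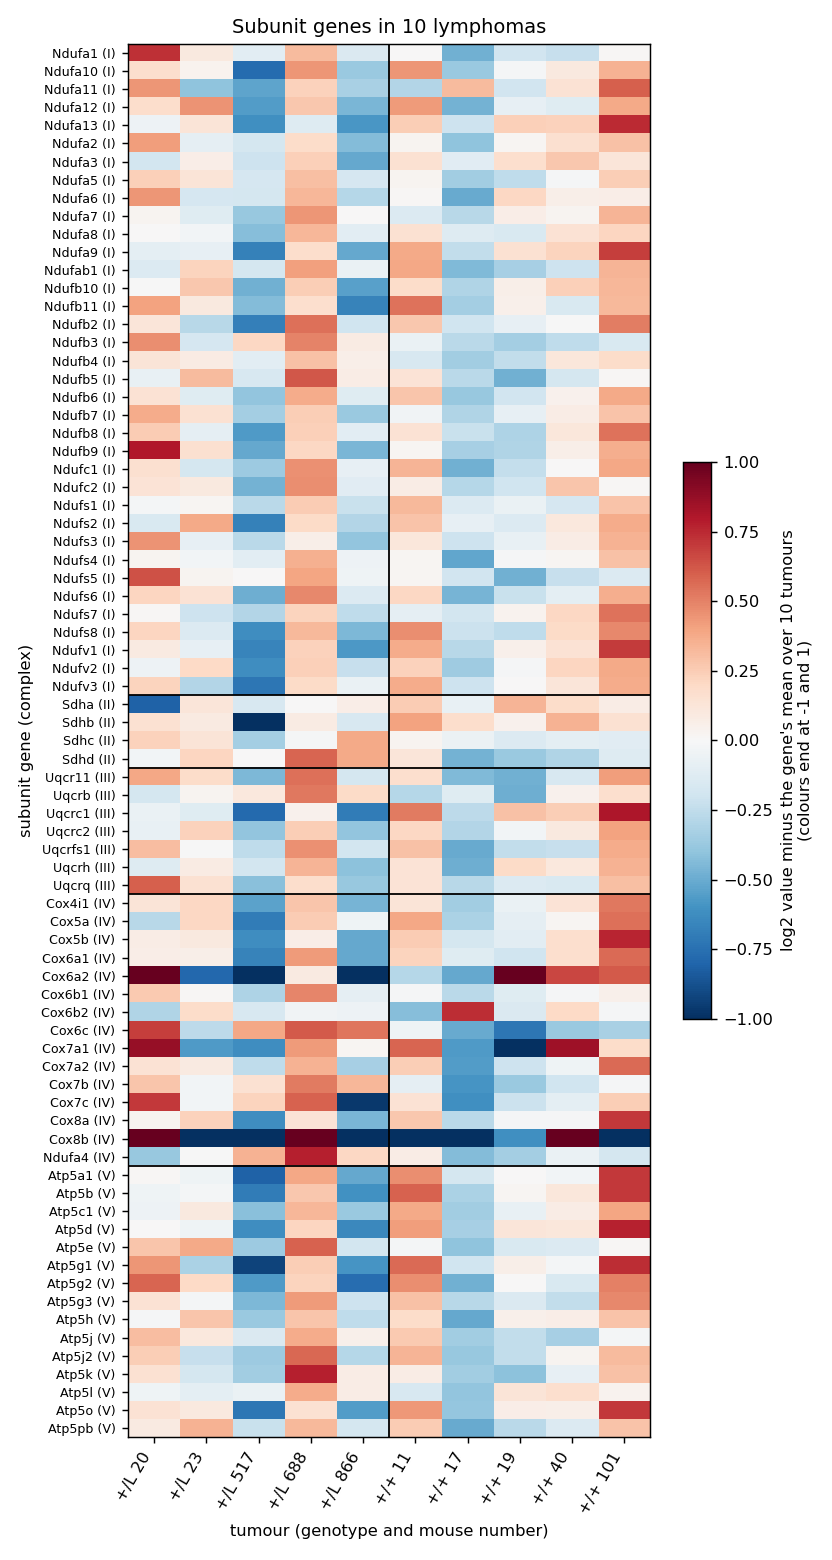
Relative log2 signal of 77 subunit genes (rows, by complex) in 10 lymphomas (columns, +/L left and +/+ right), each gene shown as its difference from its own mean over the tumours; colours end at -1 and 1. Columns 688 and 101 are mostly above and columns 17 and 517 mostly below the gene means, and Cox8b, Cox6a2 and Cox7a1 depart from the rows around them.

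Tumours 688 and 17 kept these positions when the arrays were background-corrected (normexp) and quantile-normalised: complex I stood at 0.25 and -0.18, with 35 and 2 of 36 genes above their mean. Tumours 101, 866 and 517 moved towards 0, to 0.04, 0.0002 and -0.17 for complex I. The 1779 brightest genes moved in the same direction as complexes I, III, IV and V in all 5 of these tumours on the 75th-percentile scale, with levels of 0.15 in tumour 688, -0.18 in 17, 0.37 in 101, -0.32 in 866 and -0.29 in 517. After normexp and quantile normalisation they stood at 0.095, -0.060, 0.012, -0.020 and -0.043. In tumour 20 the brightest genes were at -0.18, complexes I, IV and V at 0.15, 0.14 and 0.14, and complex III at -0.07. The same 5 levels were -0.11, 0.23, 0.25, 0.15 and -0.04 after normexp and quantile normalisation. Most of these subunit genes are bright on the array, 48 of 83 with a mean relative log2 signal above 4, which corresponds to 1328 of 17782 genes tested. How far the positions of the 5 tumours follow the brightness of the genes was not tested beyond these values.

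**Figure D2:**
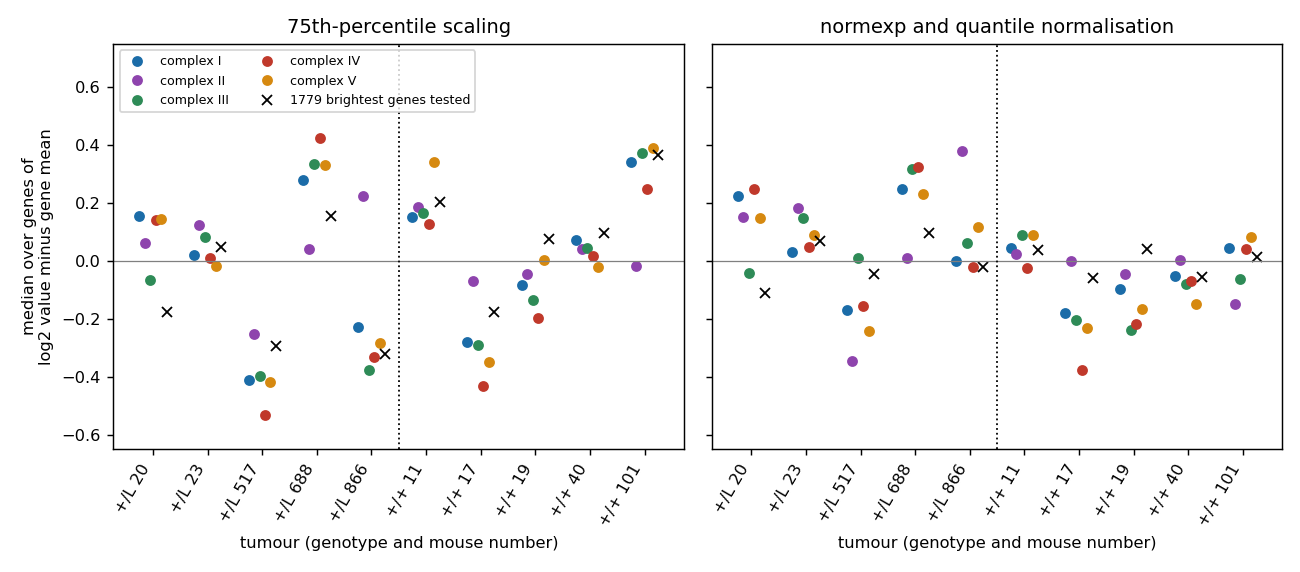
Level of each complex (coloured dots, median over its genes of the log2 distance from each gene's own mean) and of the 1779 brightest genes (crosses) in each tumour, after scaling to the 75th percentile (left) and after normexp and quantile normalisation (right). Tumour 688 stays above 0 and tumour 17 below 0 in complexes I, III, IV and V on both sides, while tumour 101 moves from 0.34 to 0.04 in complex I.

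Of the other mitochondrial gene lists, several stood high and low in the same tumours. The large subunit of the mitochondrial ribosome (49 genes), which translates the subunits encoded in mitochondrial DNA, stood at 0.39 in tumour 688, 0.31 in 101, -0.34 in 517 and -0.35 in 17. The tricarboxylic acid cycle (13 genes) stood at 0.38 in tumour 688, 0.20 in 101, -0.34 in 517 and -0.22 in 17, and its level in 101 was 0.0011 after normexp and quantile normalisation. The small subunit of the mitochondrial ribosome (29 genes) and the membrane carriers (18 genes) were also highest in 688 or 101, at 0.40 and 0.43 in 688 and 0.34 and 0.50 in 101. The regulators of mitochondrial biogenesis (15 genes) departed from this, with 0.24 in tumour 517, 0.26 in 11 and 0.08 in 688. Proliferation genes (16 genes) were highest in +/+ tumour 11 (0.90), 101 (0.64) and +/L tumour 688 (0.61) and lowest in +/+ tumours 40 (-0.64) and 19 (-0.59) and +/L tumour 517 (-0.59). They share the high tumours with the complexes but not tumour 40, and their part in the order of the complexes was not tested. Adipocyte markers were highest in tumour 688 (4.39), at 1.80 in 40 and -2.23 in 517, but low in tumours 101 (-1.78) and 11 (-2.95), where the complexes were high, and their part was not tested either.

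The probes for subunits encoded in mitochondrial DNA, which the name rule does not take, followed another order in their median, though mt-Co2 did not share it. They represent cytochrome b of complex III (mt-Cytb, chrM:15099-15158 in mm9), subunit 2 of complex IV (mt-Co2, chrM:7619-7678) and, with 2 overlapping probes, the ND4 subunit of complex I (mt-Nd4, chrM:11370-11429 and chrM:11419-11475). Their median stood at 0.44 in +/L tumour 517, which was lowest for the nuclear genes, and at 0.44 in +/+ tumour 11 and +/L tumour 23. The lowest were +/+ tumour 40 (-0.78) and +/+ tumour 17 (-0.46). The mt-Co2 probe departed from this median and ran closer to the nuclear genes. Its signal was highest in +/+ tumour 101 (9.0) and lowest in +/L tumours 866 (7.71) and 517 (8.08). For mt-Cytb the +/L tumours 20, 23, 517, 688 and 866 had 5.11, 6.39, 6.19, 5.90 and 5.63, and the +/+ tumours 11, 17, 19, 40 and 101 had 6.31, 5.08, 5.25, 4.79 and 6.03. These ranges overlapped, and the difference of 0.36 ± 0.35 (SE, n = 5 per genotype) was within the spread between tumours. It ranged from 0.18 without mouse 40 to 0.56 without mouse 11. Without mice 20 and 11 it was 0.74 and in female-labelled mice 0.99, with adjusted p of 0.33 and 0.37 in limma.

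The genotype comparison asks whether lymphomas of mice with the LIP allele differ from wild-type lymphomas in these genes. No gene of the 83 passed an adjusted p of 0.05 in limma with Benjamini-Hochberg adjustment over all genes, and neither did any of the 17782 (0% called). At an unadjusted p under 0.05, 4 of 83 genes were higher and 1 was lower in +/L tumours, against 3.14% higher and 5.44% lower over all genes tested. The 5 genes make 6.02% of the 83, below the 8.58% over all genes. For none of the 83 did the 5 values of a genotype lie wholly apart from the other 5, against 1.8% of all genes. Of the 1779 brightest genes, 17 were higher and 244 lower at an unadjusted p under 0.05. Without mice 20 and 11, 6 of 83 genes were higher and 1 lower, against 3.87% and 10.3% over all genes, and none passed the adjusted threshold in limma. Leaving out 1 mouse moved these counts. The count of higher genes was 1 without mouse 688, 17 or 19 and 2 without mouse 40 or 101. The count of lower genes was 0 without mouse 866, 517, 11, 101 or 19, 2 without mouse 20, 688 or 23 and 3 without mouse 17. Without mouse 517, 3 of all genes and none of the 83 passed the adjusted threshold in limma.

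The medians of the fitted differences, +/L minus +/+, were -0.07 log2 for complex I, -0.08 for complex II, 0.05 for complex III, -0.0019 for complex IV and -0.04 for complex V, against -0.02 over all genes. Complex I had 13 genes higher and 23 lower, complex III 4 and 3, complex IV 7 and 8, and complex V 5 and 10, where 51.9% of all genes were lower. Leaving out 1 mouse turned the sign of each median. For complex I it ranged from -0.15 without mouse 17 to 0.021 without mouse 101, and for complex II from -0.14 without mouse 866 to 0.038 without mouse 517. For complex III the range was -0.090 without mouse 20 to 0.16 without mouse 517, for complex IV -0.19 without mouse 19 to 0.10 without mouse 101, and for complex V -0.17 without mouse 688 to 0.054 without mouse 517. The slides differed in sign: complex I had a median difference of 0.39 among the 4 arrays of slide 1, -0.32 on slide 2 and -0.41 on slide 3, and complexes III, IV and V ran the same way. By the file headers, slide 2 held 1 +/+ array, of mouse 11, and slide 3 held 1 +/L array, of mouse 866. On these 2 slides a slide and a single tumour cannot be told apart, also in the values by slide of single genes below. With the slide of the file headers as a block the medians were -0.07, -0.06, 0.05, -0.0061 and -0.04 for complexes I to V. With the slide that the labels describe as a block they were -0.17, -0.13, 0.03, -0.22 and -0.22. With age as a covariate the medians were 0.22, -0.19, 0.22, 0.29 and 0.22 for complexes I to V, positive where they had been at or below 0 for complexes I, IV and V. Without mice 20 and 11 they were -0.09, 0.0089, -0.05, -0.11 and -0.02.

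Cox6c, a small structural subunit of complex IV (probe at chr15:35861751-35861810 in mm9), had the lowest p of the 83. The +/L tumours 20, 23, 517, 688 and 866 had relative log2 signals of 5.62, 4.67, 5.32, 5.55 and 5.47. The +/+ tumours 11, 17, 19, 40 and 101 had 4.89, 4.43, 4.21, 4.56 and 4.61. Tumour 23 was the only +/L tumour within the +/+ range. The difference was 0.79 ± 0.23 (SE, n = 5 per genotype; means 5.33 ± 0.38 and 4.54 ± 0.25, SD), with an exact two-sided permutation p of 0.016 and an adjusted p of 0.54 in limma. It was 1.09 on slide 1, 0.11 on slide 2 and 1.05 on slide 3, and between 0.57 and 1.01 in the 22 ways of processing and leaving out arrays.

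Cox7b (chrX:103217154-103217213), a neighbouring small subunit of the same complex, behaved alike. Its values were 4.10, 3.80, 3.97, 4.34 and 4.15 in +/L tumours 20, 23, 517, 688 and 866. In +/+ tumours 11, 17, 19, 40 and 101 they were 3.73, 3.23, 3.45, 3.62 and 3.81. The ranges met only at tumours 23 and 101, and the difference was 0.50 ± 0.19 (SE, n = 5 per genotype; adjusted p = 0.55 in limma and p = 0.016 in the exact two-sided permutation test).

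Ndufb3 (chr1:58652622-58652681), an accessory subunit in the membrane arm of complex I, had 4.63, 4.0, 4.37, 4.66 and 4.25 in +/L tumours 20, 23, 517, 688 and 866. The +/+ tumours 11, 17, 19, 40 and 101 had 4.10, 3.89, 3.83, 3.91 and 4.01. Here +/L tumour 23 lay among the +/+ tumours. The difference was 0.43 ± 0.18 (SE, n = 5 per genotype; adjusted p = 0.57 in limma and p = 0.024 in the exact two-sided permutation test).

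Sdhd (chr9:50404630-50404689), one of the membrane anchors of complex II, had 3.35, 3.60, 3.39, 3.96 and 3.76 in +/L tumours 20, 23, 517, 688 and 866. The +/+ tumours 11, 17, 19, 40 and 101 had 3.50, 2.91, 3.01, 3.08 and 3.25. Only +/+ tumour 11 reached the +/L range. The difference was 0.46 ± 0.20 (SE, n = 5 per genotype; adjusted p = 0.57 in limma and p = 0.032 in the exact two-sided permutation test), and 0.61 without mice 20 and 11.

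Uqcrc1 (chr9:108851624-108851683), a core protein of complex III, was the 1 gene of the 5 that was lower in +/L tumours. It had 5.51, 5.46, 4.80, 5.62 and 4.88 in tumours 20, 23, 517, 688 and 866, and 6.10, 5.31, 5.87, 5.82 and 6.38 in +/+ tumours 11, 17, 19, 40 and 101. Tumour 17 was the only +/+ tumour within the +/L range. The difference was -0.64 ± 0.26 (SE, n = 5 per genotype; adjusted p = 0.56 in limma and p = 0.032 in the exact two-sided permutation test). It was -0.0029 on slide 1, -0.97 on slide 2 and -1.25 on slide 3, and -0.20 with age as a covariate.

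**Figure D3:**
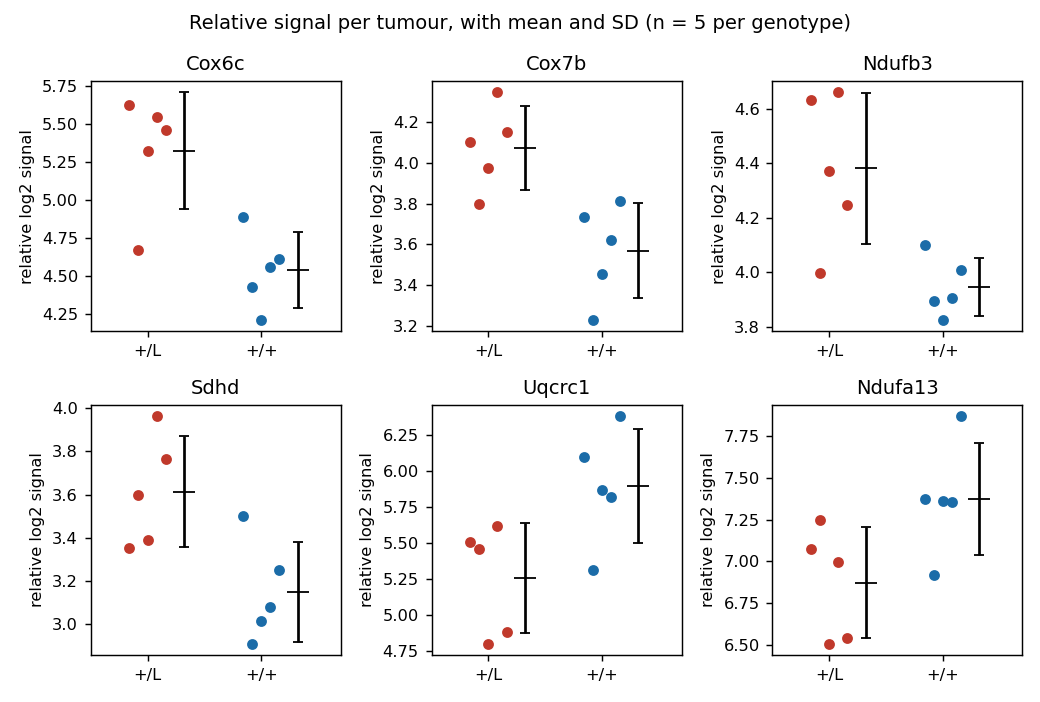
Relative log2 signal of 6 genes in each tumour (dots), +/L in red and +/+ in blue, with the mean and SD of each genotype beside them (n = 5). Cox6c, Cox7b, Ndufb3 and Sdhd lie higher and Uqcrc1 and Ndufa13 lower in +/L tumours, and in each panel at least 1 tumour lies within the range of the other genotype.

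The next genes by p did not reach 0.05 unadjusted. Ndufa13, a complex I subunit also known as GRIM-19, differed by -0.50 ± 0.23 and Ndufs5, an accessory subunit, by 0.41 ± 0.20 (SE, n = 5 per genotype). Among the assembly factors Ndufaf2, which acts late in building complex I, differed by 0.46 ± 0.24 and Ndufaf1, which acts early, by -0.12. Uqcrb and Uqcr11, small subunits of complex III, differed by 0.27 and 0.20, and Atp5d, the delta subunit of the F1 part of ATP synthase, by -0.44. Ndufa4, which is counted here with complex IV, where its protein belongs, differed by 0.38 ± 0.23 (SE, n = 5 per genotype). The common complex IV subunits Cox4i1 and Cox5a differed by -0.15 and -0.22, less than or about their standard errors of 0.24 and 0.25. All 22 settings gave the same sign for Cox6c, Cox7b, Ndufb3, Sdhd, Uqcrc1, Ndufa13, Ndufs5 and Ndufaf2. These genes have low p in the same arrays, which the settings share, so a kept sign is no separate support. Sizes moved more: Ndufa13 was at -0.14 after normexp and quantile normalisation and -0.04 in the deposited table.

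By role, the fitted differences are given as a description with no test. Of the 7 nuclear core subunits of complex I, which carry its flavin and iron-sulphur clusters, 0 were higher and 7 lower (median -0.21; Ndufs1 -0.09, Ndufv1 -0.40), and of 29 supernumerary subunits 13 were higher and 16 lower (median -0.0094). Of all genes 51.9% were lower, and of the 1779 brightest 1359 were. In complex II the catalytic subunits Sdha (-0.31 ± 0.21) and Sdhb (-0.44 ± 0.28) were lower and the anchors Sdhc (0.15 ± 0.18) and Sdhd higher (SE, n = 5 per genotype). Leaving out 1 mouse turned none of these signs. Sdhb was at -0.18 without mouse 517, Sdha at -0.15 without mouse 20 and Sdhc at 0.08 without mouse 866. In complex III both core proteins were lower and 3 of 4 supernumerary subunits higher, with Uqcrfs1, the Rieske iron-sulphur protein, at 0.13. After normexp and quantile normalisation, in the deposited table and with age as a covariate, 1 core protein and all 4 supernumerary subunits were higher. In complex V, 4 of 5 genes of the catalytic F1 part were lower, among them Atp5a1 (-0.39) and Atp5b (-0.44), and all 3 c-ring genes were lower (Atp5g1 -0.46, Atp5g2 -0.13 and Atp5g3 -0.04). After normexp and quantile normalisation 4 of 7 core subunits of complex I were lower (median -0.07) and 23 of 29 supernumerary subunits higher (median 0.18), where 51.8% of all genes were lower, and Atp5g2 (0.12) and Atp5g3 (0.24) turned sign. With age as a covariate 5 of 7 core subunits of complex I were higher, and 45.6% of all genes lower. Of the 5 genes of the F1 part, 2 were higher after normexp and quantile normalisation, and 4 were higher in the deposited table and with age as a covariate.

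The count of genes differed between ways of processing the arrays. With each array scaled to its median in place of the 75th percentile, 5 of 83 genes were higher and 1 lower at an unadjusted p under 0.05, against 3.75% and 4.57% over all genes. Background correction and normalisation were changed together in the next setting, so their parts cannot be told apart. After normexp and quantile normalisation 19 of 83 genes were higher and 1 lower in +/L tumours at an unadjusted p under 0.05 (22.9% and 1.2%), against 3.51% and 5.81% over all genes tested. In the authors' deposited table of log2 values it was 23 higher and 1 lower (27.7% and 1.2%), against 3.89% and 5.56%. None of the 83 passed an adjusted p of 0.05 in limma in either of these 2 settings, where 1 of all genes did (0.00562%). Of the higher genes, 19 were shared by those 2 settings, and 4 (Cox6c, Cox7b, Ndufb3 and Sdhd) by these and the 75th-percentile scale. The genes of lowest p after quantile normalisation were Atp5e, the epsilon subunit of ATP synthase (0.63, against 0.28 on the 75th-percentile scale), Ndufs5 (0.74 against 0.41) and Cox6c (1.01 against 0.79). Median differences of the complexes then were 0.13, 0.0022, 0.29, 0.21 and 0.19 for complexes I to V, and 0.17, 0.02, 0.33, 0.24 and 0.23 in the deposited table.

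On the 75th-percentile scale the difference between genotypes moved with brightness over the whole array, and these genes lay above that trend. Genes with a mean relative log2 signal below -4 had a median difference of 0.22 (3062 genes) and genes above 6 of -0.36 (343 genes). In the bin from 4 to 6 the median was -0.21 over 985 genes and -0.0057 over the 32 members. Above 6 it was -0.36 against -0.19 over the 16 members, and from 2 to 4 it was -0.13 over 2780 genes against -0.0011 over 23 members. After normexp and quantile normalisation the medians of all genes in these 3 bins, from the dimmest to the brightest, were -0.0056, -0.0031 and -0.0073, and those of the members 0.18, 0.20 and 0.14. The members are part of each bin, and no test was made of the gap.

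**Figure D4:**
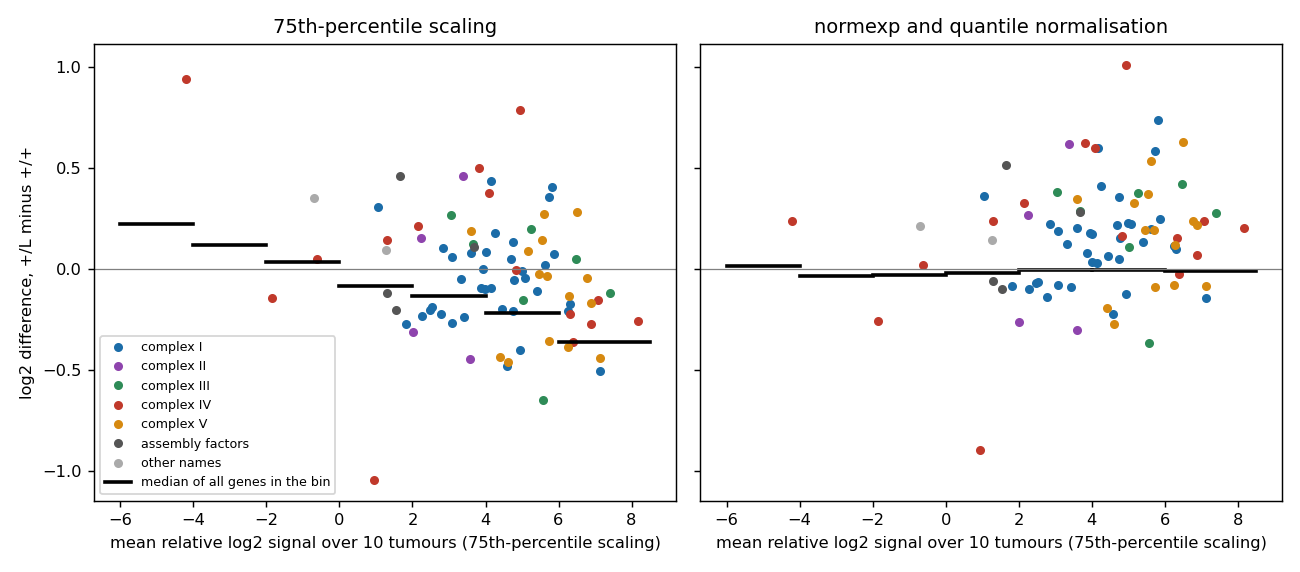
Log2 difference, +/L minus +/+, of each of the 83 genes (dots, coloured by complex) against its mean relative log2 signal, with the median of all genes tested in each brightness bin (black bars), after scaling to the 75th percentile (left) and after normexp and quantile normalisation (right). On the left the bars fall from 0.22 to -0.36 while on the right they lie near 0, and most dots lie above the bars on both sides.

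Several genes have more than 1 probe, and the dim ones differ from the bright ones. For 27 genes with several probes kept, 10 had probes of opposite sign. Restricted to probes with a mean relative log2 signal of at least -2, this held for 4 of 18 genes. The 11 dim second probes were all higher in +/L tumours, by 0.16 to 1.06 (median 0.76), 5 of them at an unadjusted p under 0.05 and none at an adjusted one in limma. Such probes lie near background: those of Ndufv2 (1.06) and Ndufc1 (1.03), both among the 5, were above it on only 3 of 10 arrays. Of the 10892 dim probes among all probes kept, 62.8% were higher, with a median of 0.16, and 6.83% had an unadjusted p under 0.05 in either direction. An example is Ndufb8, a complex I subunit, whose dim probe (chr19:44623218-44623277 in mm9) differed by 0.83 while the gene's bright probe differed by -0.11. The level of each gene given above is that of its brightest probe.

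Tissue-restricted isoforms of complex IV were the exceptions to the even expression of the complexes. Cox8b is the isoform of subunit 8 known from heart, skeletal muscle and brown fat, where Cox8a is the common one. Cox8b (chr7:148084852-148084911 in mm9) had -0.92, -5.27, -5.33, -1.10 and -6.07 in +/L tumours 20, 23, 517, 688 and 866 and -7.34, -5.44, -4.82, -0.28 and -5.51 in +/+ tumours 11, 17, 19, 40 and 101. It was high in tumours 20, 688 and 40, of both genotypes, and low in the other 7, of which tumours 17 and 19 were still called above background. The genotypes overlapped entirely (0.94 ± 1.44, SE, n = 5 per genotype), and without mice 20 and 11 the difference was -0.43. Cox8a, by contrast, stayed between 6.28 and 7.60.

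Cox7a1, the muscle and brown fat isoform of subunit 7a, had 0.25, -1.19, -1.24, -0.20 and -0.61 in the same +/L tumours and -0.04, -1.19, -1.80, 0.22 and -0.44 in the +/+ tumours. Its highest tumours were 20 and 40 and so were the top 2 of Cox8b. Cox6a2, the heart and skeletal muscle isoform of subunit 6a, had 2.17, 0.15, -0.07, 1.02 and -1.22 in the +/L and 0.64, 0.42, 3.06, 1.6 and 1.55 in the +/+ tumours, with its peak in tumour 19, where Cox8b was low. Its difference was -1.04, and -1.68 without mice 20 and 11. The common counterpart Cox6a1 stayed between 7.50 and 8.74. Cox6b2, known from testis, ranged only from -2.27 to -1.11. Cox4i2, an isoform known from lung, was above background in tumours 20 and 17 only, and the probes of Cox7b2 and Cox8c in no tumour, so these 3 genes were not tested.

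Markers of the tissues that use these isoforms were set beside them. Ucp1, the uncoupling protein of brown fat, was above background only in tumours 40 (-0.84), 20 (-3.41) and 688 (-5.59), the same 3 tumours that were high for Cox8b. For tumour 688 this rests on the background call, since tumour 23, not called above background, had a similar Ucp1 signal (-5.70). Cidea, a lipid droplet protein of brown fat, was highest in tumours 40 (1.52) and 688 (-0.31), then 17 (-2.16) and 20 (-2.46), and below in the other 6. Of the other 4 tested brown adipocyte markers, Kcnk3 was highest in tumours 20 (-2.04), 688 (-2.68) and 40 (-3.90), and Dio2 in 20 (-3.39) with -5.15 in 40. Prdm16 was highest in tumour 23 (-0.28) with -3.21 in 40, and Cpt1b in 101 (-1.50). Of 8 brown adipocyte markers 6 were tested, and their summed level on a linear scale was 0.21 to 1.38 in +/L and 0.35 to 3.81 in +/+ tumours, with the peak in tumour 40. Of 10 adipocyte markers 9 were tested, with a summed level of 20.7 to 181 in +/L tumours and 7.33 to 74.4 in +/+ tumours. Of 17 muscle markers 14 were tested, with a summed level of 4.27 to 11.8 in +/L and 5.28 to 11.1 in +/+ tumours; Mb, the myoglobin gene, was above background in no tumour and Ckm in 1. Of the 14 tested, 8 were highest in tumour 20, among them Tnnc2 (0.58), Myh2 (-1.39), Tnnc1 (-1.69) and Actn2 (-2.21), and the median of the list there was 1.55 above the gene means. Others of the list peaked elsewhere: Myl1 and Myh7 were highest in tumour 101 (1.73 and 0.68), with -5.38 and -2.34 in tumour 20. Tumour 20 was also high for Cox8b, Cox7a1 and Cox6a2. In tumour 19, where Cox6a2 had its peak, the median of the muscle list was -0.12. The part of these cell types in the isoform levels was not tested.

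**Figure D5:**
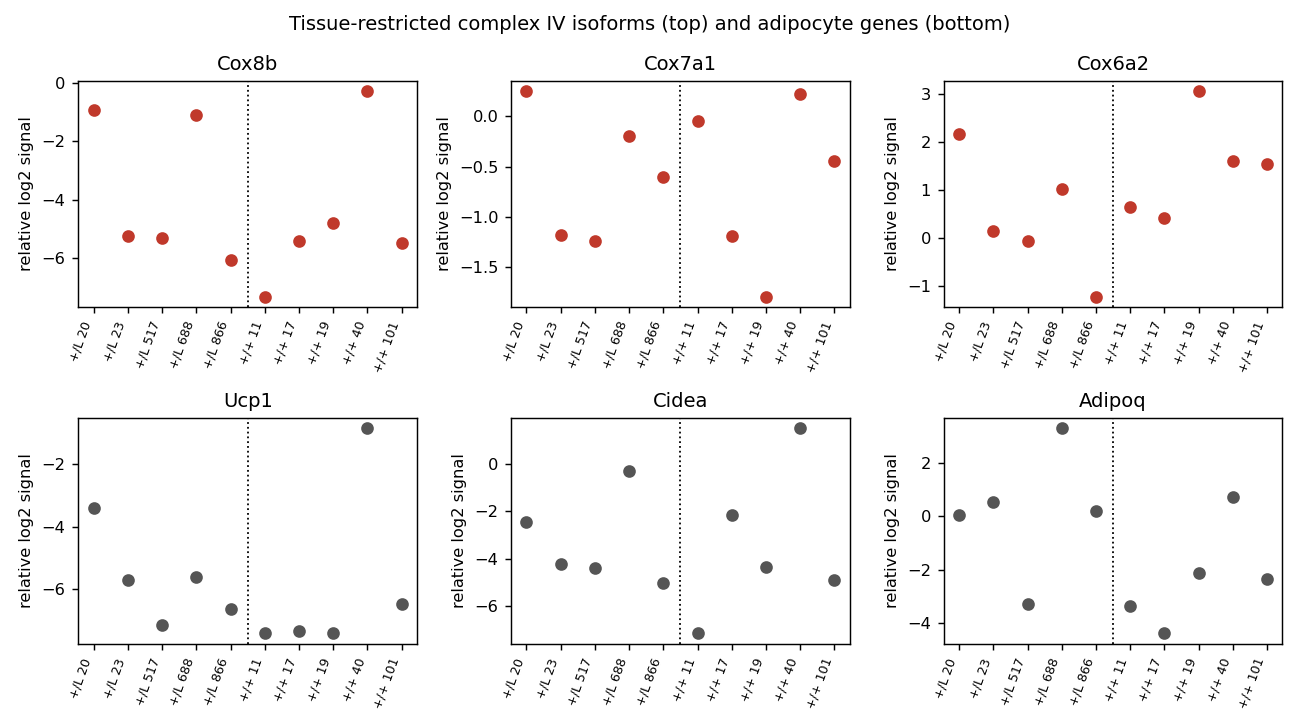
Relative log2 signal in each tumour of the complex IV isoforms Cox8b, Cox7a1 and Cox6a2 (top, red) and of Ucp1, Cidea and Adipoq (bottom, grey), with +/L tumours left of the dotted line; each panel has its own scale. Cox8b is high in tumours 20, 688 and 40, which are also the 3 tumours where Ucp1 was above background. The Ucp1 signal of tumour 688 (-5.59) is near that of tumour 23 (-5.70), which was not called above background.

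The promoters of these genes were read from RefSeq windows of build GRCm38.p6 that span 250 bases before to 50 bases after a gene's start, which held 71 of the 86 genes. Nuclear respiratory factor 1 (NRF1), factors of the ETS family such as GABP, and YY1 are known regulators of genes for mitochondrial proteins. The core letters of the NRF1 motif, CGCATGCG, were found on either strand in 9 of 71 genes (12.7%; Atp5g2, Atp5j, Atp5k, Atp5l, Cox6a1, Ndufa8, Ndufa11, Uqcr11 and Uqcrc1), against 2.07% of 27025 genes of any kind in windows of the same length. The ETS motif CCGGAAG was in 17 genes (23.9%, against 9.93%) and the YY1 motif AAGATGGC in 11 (15.5%, against 3.19%). Overlaps between motifs were not excluded. At least 1 of the 3 was in 31 of the 71 genes, against 14.1% of all genes. A match is a run of letters and not a measured binding site.

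The stretches of 170 bases before the start are shown for 4 of the genes with the NRF1 letters upstream, and for Sdhd, Cox7b and Cox8b as genes whose levels are described above. They read 5′ to 3′ on the gene's strand in GRCm38.p6, with motif matches in capitals: CGCATGCG for NRF1 and CTTCCGG, the reverse complement of the ETS motif. Sdhd holds an ETS match and Cox7b and Cox8b none of the 3 motifs in these stretches. The positions are chr15:102671048-102671217 (minus strand) for Atp5g2, chr5:108434400-108434569 (minus) for Atp5k, chr5:115348959-115349128 (minus) for Cox6a1 and chr17:56717592-56717761 (plus) for Ndufa11. They are chr9:50603850-50604019 (minus) for Sdhd, chrX:106015530-106015699 (plus) for Cox7b and chr7:140900447-140900616 (minus) for Cox8b.
Atp5g2: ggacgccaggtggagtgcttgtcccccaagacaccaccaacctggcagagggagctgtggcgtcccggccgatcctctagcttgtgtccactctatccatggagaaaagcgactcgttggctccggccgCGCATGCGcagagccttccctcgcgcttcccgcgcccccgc
Atp5k: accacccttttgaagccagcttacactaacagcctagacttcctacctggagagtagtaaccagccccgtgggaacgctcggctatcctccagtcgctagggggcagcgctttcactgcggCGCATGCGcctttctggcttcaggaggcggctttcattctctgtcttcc
Cox6a1: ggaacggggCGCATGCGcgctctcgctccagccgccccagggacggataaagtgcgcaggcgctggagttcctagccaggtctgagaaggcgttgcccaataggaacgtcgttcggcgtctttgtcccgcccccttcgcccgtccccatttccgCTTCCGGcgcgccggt
Ndufa11: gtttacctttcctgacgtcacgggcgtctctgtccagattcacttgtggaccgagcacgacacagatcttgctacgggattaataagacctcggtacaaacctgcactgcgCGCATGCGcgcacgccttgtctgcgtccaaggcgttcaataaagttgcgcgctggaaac
Sdhd: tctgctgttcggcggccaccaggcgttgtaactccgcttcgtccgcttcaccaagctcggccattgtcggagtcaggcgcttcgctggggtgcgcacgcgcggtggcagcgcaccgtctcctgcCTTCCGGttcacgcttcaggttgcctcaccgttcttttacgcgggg
Cox7b: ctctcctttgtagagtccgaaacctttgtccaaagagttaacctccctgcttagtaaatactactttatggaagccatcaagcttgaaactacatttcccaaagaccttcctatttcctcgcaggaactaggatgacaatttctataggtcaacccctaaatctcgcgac
Cox8b: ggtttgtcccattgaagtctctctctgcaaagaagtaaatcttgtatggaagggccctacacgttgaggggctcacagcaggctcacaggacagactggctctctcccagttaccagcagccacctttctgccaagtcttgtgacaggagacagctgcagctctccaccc

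Other genes of the pathway, from lists chosen by function, were also read from the same fit, and none passed an adjusted p of 0.05 in limma. Of 36 tested genes for assembly factors, electron carriers and newer-named subunits, 18 were higher and 18 lower in +/L tumours (median -0.01). At an unadjusted p under 0.05 there were 2 in each direction, against 3.14% higher and 5.44% lower over all genes tested. The 2 of lowest p were Cox17, a copper chaperone for complex IV (-0.80), and Atp5md, a subunit of ATP synthase that the name rule misses (0.52). The tricarboxylic acid cycle had 2 of 13 genes higher, with Ogdh, a subunit of 2-oxoglutarate dehydrogenase, at -0.49. Of all genes 51.9% were lower, and of the 1779 brightest 1359 were. The median of the cycle was -0.11, and 0.05 after normexp and quantile normalisation. The large and small subunits of the mitochondrial ribosome had 25 of 49 and 13 of 29 genes higher, with 0 at an unadjusted p under 0.05.

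Among 15 regulators of mitochondrial biogenesis 6 were higher and 9 lower, and the 2 of lowest p were Tfb2m, a transcription factor of mitochondrial DNA (0.58), and Tfam, which packages that DNA (-1.11). Coenzyme Q synthesis had 3 of 8 genes higher and the membrane carriers 5 of 18. The median of the carriers was -0.10, and 0.12 after normexp and quantile normalisation. The 4 probes for subunits encoded in mitochondrial DNA had a median difference of 0.35, or 0.61 after normexp and quantile normalisation, with mt-Co2 at -0.29 and the other 3 near 0.35. Of markers of other cells, 9 of 9 adipocyte (median 2.46) and 8 of 8 neutrophil markers (2.0) were higher in +/L tumours. Of 9 macrophage markers 7 were lower (median -0.96). At an unadjusted p under 0.05 there were 4, 2 and 3 in those directions, and 1 macrophage marker was higher. Over all genes it was 3.14% higher and 5.44% lower. After normexp and quantile normalisation the 3 medians were 1.62, 0.76 and -0.78. Markers of a list share tumours and are not replicates, and the genotypes overlapped. Neutrophil markers stood at -1.27 in +/L tumour 688 and 1.56 in +/+ tumour 40. Adipocyte markers stood at -2.23 in +/L tumour 517 and 1.80 in +/+ tumour 40. B-cell and T-cell markers had 8 of 10 lower each. Pancreatic acinar markers had 5 of 6 lower (median -1.02, 2 at an unadjusted p under 0.05), epithelial markers 5 of 6 higher (1.23) and handling stress genes 9 of 10 lower (-0.55). The epithelial difference rests on +/L tumour 20, where the list stood at 3.96. It stood at -0.80 to 0.35 in the other +/L tumours and at -1.72 to 0.39 in the +/+ tumours. None of the markers of other cells passed an adjusted p of 0.05 in limma. Their part in the differences of the oxidative phosphorylation genes was not tested.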

How the data were processed

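Gene expression was measured in 10 lymphomas with single-colour Agilent mouse arrays, 1 array per tumour. The scanner files hold spot intensities that Feature Extraction 10.5.1.1 had background-subtracted and corrected, per the file headers, with probe positions in mm9. The authors also deposited a table of log2 values, 1 column per array, whose column medians of 6.96 to 6.97 and shared maximum of 18.9 log2 units were read from the table itself; how it was normalised and whether it was centred beyond this are not given in the sources used here. As deviations from the probe means, a column and the array of the same label had r of 0.908 to 0.952 over probes, and other pairs at most 0.487.

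Processed signals were put on a log2 scale minus each array's 75th percentile, and spots of a probe were averaged. Between 48.0% and 66.7% of probes were well above background on an array, and the number of arrays limits the precision. Kept were 26421 probes above background on at least 3 of 10 arrays, after 69 with outlier flags were left out; the brightest probe stood for a gene. Probes were named by accession (25097), symbol (6333) or synonym (1640) through RefSeq, and by the file's name otherwise (8104). Genotypes were compared over all genes with limma 3.58.1 in R 4.3.3, by linear fits with moderated variances and Benjamini-Hochberg adjustment at 0.05. The procedure was also run on simulated data in which genes were independent. Genes moved together in these tumours, so that run cannot vouch for the procedure on such data. Exact two-sided permutation tests used 5 against 5 tumours, with a smallest possible p of 0.0079.

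The member genes, lists and alternatives were chosen with earlier results of these data known. Genes are named where they pass the adjusted threshold, have the 3 lowest p or the largest SD of their complex, or belong to a stated set of core subunits, isoforms and genes of mitochondrial DNA; Ndufb8, Atp5e and genes given as examples beyond these were chosen after their values were seen. Alternatives were normexp with an offset of 50 and quantile normalisation, median scaling, the deposited table, other filters on dim probes, the mean of a gene's probes, slide blocks, age as a covariate, female-labelled mice, and leaving out mice. The slide in the file headers differs from the described one for mice 866 and 17.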

Additional observations from a re-analysis of the deposited data

Results flagged for a closer look

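In 2 of 82 groups of 5 tumours, 1 tumour lay far from the other 4 by Dixon's gap, where chance alone picks about 1 group in 20. Sdhb, the iron-sulphur subunit of complex II, had a relative log2 signal of 2.32 in +/L tumour 517, against 3.43 to 3.74 in the other +/L tumours. The probe for mt-Co2, the mitochondrially encoded subunit 2 of complex IV (COX2 in the files), had 9.0 in +/+ tumour 101, against 8.22 to 8.40 in the other +/+ tumours.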

How the results depend on the processing

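No paired analysis was possible because the mouse numbers are unique and pair no +/L with any +/+ animal. No member gene passed the adjusted threshold in limma under any alternative. Over all genes 1 passed after normexp and quantile normalisation and 1 in the deposited table, and 0 to 3 when 1 mouse was left out. The 4 higher and 1 lower member genes at an unadjusted p under 0.05 became 19 higher after normexp with quantile normalisation (one setting, called normexp below), 5 higher and 1 lower with median scaling, 23 in the deposited table, 2 with no filter, 2 with the header slide block and 0 with the described slide block; lower genes became 2 with probes above background on all 10 arrays and 0 with either block or with age. Without mice 20 and 11 it was 6 higher and 1 lower. Leaving out 1 mouse gave 1 to 5 higher and 0 to 3 lower. The median of complex I was 0.22 with age. Levels of complexes that moved by more than the spread between tumours are given after normexp and then in the deposited table: for tumour 101, complex I 0.045 and 0.024, III -0.063 and -0.090, V 0.082 and -0.034, and IV -0.076 in the table; for 866, complex II 0.38 and 0.39, III 0.064 and 0.15, IV -0.020 and 0.12, V 0.12 and 0.17, and I 0.037 in the table; for 517, complex III 0.0093 and 0.014, IV -0.16 and -0.15, with I -0.16 and V -0.11 in the table; for 11, complex II 0.025 and 0.024. Of 36 named genes 18 kept their sign throughout, and 46 of 395 differences turned. After normexp these were Atp5g2 0.12, Atp5g3 0.24, Cox4i1 0.24, Cox5a 0.16, Cox6a1 0.21, Cox7a2 0.16, Cox8a 0.069, Ndufs1 0.082 and mt-Co2 0.085. In the deposited table they were Atp5a1 0.027, Atp5b 0.050, Atp5g2 0.17, Atp5g3 0.33, Cox4i1 0.33, Cox5a 0.26, Cox6a1 0.27, Cox7a2 0.17, Cox8a 0.16, Ndufs1 0.085 and mt-Co2 0.12. With age they were Atp5b 0.033, Atp5d 0.027, Atp5g2 0.55, Atp5g3 0.22, Cox4i1 0.23, Cox6a1 0.079, Cox7a2 0.45, Cox8a 0.096, Ndufaf1 0.18, Ndufs1 0.11, Ndufv1 0.017 and mt-Co2 0.041. In female-labelled mice they were Atp5g3 0.16, Cox5a 0.062, Cox7a2 0.23, Cox8b -0.93 and Ndufs1 0.070. With the described slide block they were Cox6b2 0.034, Cox7a1 -0.77 and Cox8b -0.32, and without mice 20 and 11 Cox7a1 -0.0070, Cox7a2 0.024 and Cox8b -0.43. Median scaling turned Cox7a2 (0.036), and the mean of probes Cox7a2 (0.014) and Dmac2, an assembly factor (0.28). Leaving out 1 mouse turned 14 of 360 differences, within -0.30 to 0.041 for Atp5g2, -0.16 to 0.072 for Atp5g3, -0.27 to 0.024 for Cox6b2, -0.23 to 0.27 for Cox7a1 and -0.14 to 0.14 for Cox7a2. The cause was not tested. Probes near background limit Cox8b and the dim second probes, and with 5 tumours a genotype small differences could not be seen.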
